A study of Arabidopsis thaliana with 12 samples.

Results

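The genes described here are 55 Arabidopsis thaliana genes whose array probes read higher in every sample of plants grown in photosystem II light than in any sample of plants grown in photosystem I light. They were chosen from the 692 probes annotated to 1 gene, out of 3439 probes measured. A probe entered when its lowest deposited intensity among the 6 PSII-light samples lay above its highest among the 6 PSI-light samples and its mean intensity over all 12 samples was at least 0.3. Of the 569 probes of 1 gene at or above that mean, 64 met the condition. Another 9 were then left out by name: CCL, FZL, AT4G39760, AT5G27560, CRR41, and the pentatricopeptide repeat genes OTP70, AT5G02830, AT4G21170 and AT1G79080. Because the light comparison itself chose the 55 genes, their differences between the regimes are given as a description, with no test, and support nothing about the regimes.

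All 12 samples were total RNA of wild-type plants of the accession C24, 6 from plants kept in light specific for photosystem I and 6 from plants kept in light specific for photosystem II. Every sample shared the genotype, and the labels name no tissue, age or time. The deviations of samples 1 and 2 from their group mean went together, as did those of 3 and 4 and of 5 and 6, with correlations of 0.468 to 0.693 over all probes in either regime. Each such pair was therefore averaged as repeat measurements of 1 replicate, which left replicates 1, 2 and 3 per regime. The labels do not say whether these came from separate plants, so their spread may be technical. The intensities of a sample summed to between 3642.89 and 3767.52. The precision is limited by how many arrays there are. LHB1B2, an antenna gene of green tissue, was among the brightest probes, with 21 of the 3439 above its mean of 16.2.

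The 2 photosystems work in series and absorb partly different colours. Light taken up mainly by photosystem II feeds electrons into the plastoquinone pool and reduces it, whereas light taken up mainly by photosystem I draws electrons out and oxidises it. The redox state of this pool is known to act on the transcription of plastid and nuclear genes, through signals that travel from the plastid to the nucleus.

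The 55 genes were modest in level and in difference. The ratio of the PSII-light mean to the PSI-light mean ran from 1.10 for AT4G40080 to 1.62 for TPP2, with a median of 1.24. On the log2 scale, after quantile normalization between samples and with a pseudocount of 0.193, the difference ran from 0.05 to 0.66 with a median of 0.21. The median was 0.01 over all probes and 0.04 over the 569 probes of 1 gene from which the genes were taken. A difference of at least 0.3 was found for 14 genes, and one under 0.2 for 26. The pseudocount shrinks the log2 difference more in dim probes. CSLA01, with a ratio of 1.54, had 0.36, and the brighter AT4G29890, with 1.55, had 0.66. The log2 order of the genes and these counts therefore depend on the pseudocount. Mean intensity ran from 0.316 for PRA1.B3 to 2.18 for AT4G25290 with a median of 0.734, close to the median of 0.702 over all probes of 1 gene that passed the minimum. A spot's brightness also reflects its probe, so these levels describe spots and do not rank transcripts. In plant RNA of this kind, more cells of a type and more RNA per cell cannot be told apart.

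**Figure D1:**
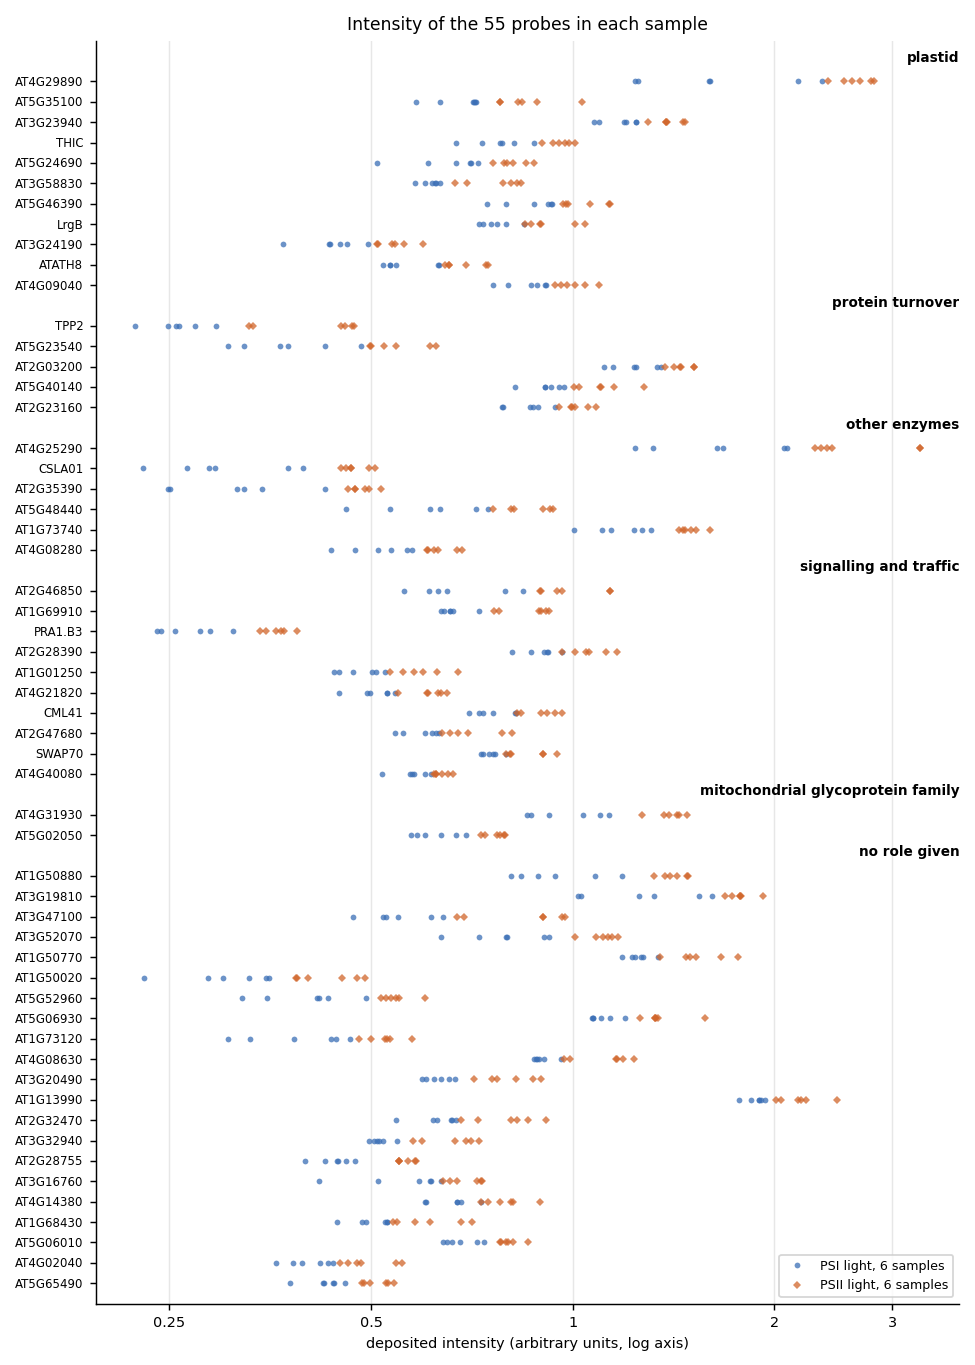
Deposited intensity in arbitrary units (log axis) of the 55 probes, 1 row per gene, grouped by role and ordered within a group by log2 difference; circles are the 6 PSI-light samples and diamonds the 6 PSII-light samples. The diamonds lie to the right of the circles in every row, as the choice of genes requires, and the distance between the nearest points varies from row to row.

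The margin by which a gene entered could be thin. AT2G28390 entered with a lowest PSII-light value 0.0307% above its highest PSI-light value, CML41 with 0.0755% and SWAP70 with 0.113%. Just outside were AT4G17070, AT2G27630 and AT2G01400, with margins of -0.00691%, -0.199% and -0.311%. At the intensity minimum, PRA1.B3 (0.316), TPP2 (0.338) and AT1G50020 (0.370) were the dimmest genes taken, while AT3G01060 (0.296), AT3G56130 (0.215) and AT1G50510 (0.193) were not overlapping in the same direction but too dim. The widest margin was that of AT2G28755, whose 6 PSII-light values began at 0.550 and whose 6 PSI-light values ended at 0.474.

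**Figure D2:**
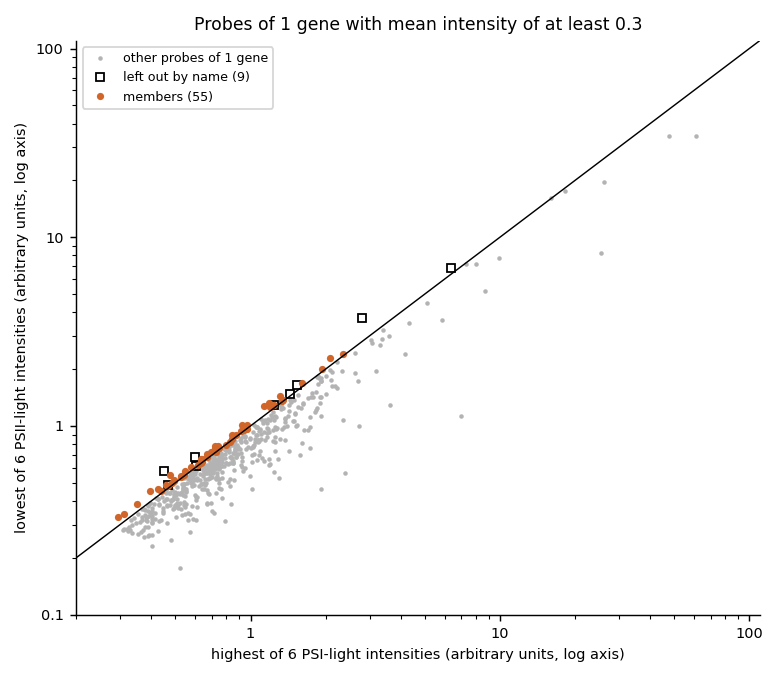
Highest of the 6 PSI-light intensities against the lowest of the 6 PSII-light intensities (arbitrary units, both axes log) for probes of 1 gene with a mean of at least 0.3. The 55 genes and the 9 left out by name lie above the line of equality, and many genes lie close to it.

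How many genes met the condition depended on the scaling of the arrays. The deposited columns were not level: the column median was higher in PSII light by 0.07 on the log2 scale for number 1 and by 0.11 for number 3, and equal to within 0.001 for number 2. On deposited values 11.2% of the 569 probes of 1 gene did not overlap in the direction of PSII light, and 4.39% in the other. After quantile normalization these shares were 8.44% and 5.27%, and after median centring 5.45% and 5.62%. The share of non-overlapping probes that were higher thus went from 71.9% as deposited to 61.5% and 49.2%. Of the 55 genes, 29 still did not overlap after quantile normalization, 25 after median centring and 23 after both. The differences of all 55 were above 0 under each of these scalings, with medians of 0.25 as deposited and 0.19 after median centring. Over all probes these medians were 0.06 and -0.00104, and over the 569 probes of 1 gene 0.09 and 0.03. The sign as deposited is fixed by the rule. Median centring lowers every gene by the same amount, which is less than the lowest deposited difference of 0.11, so that sign could not change either.

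**Figure D3:**
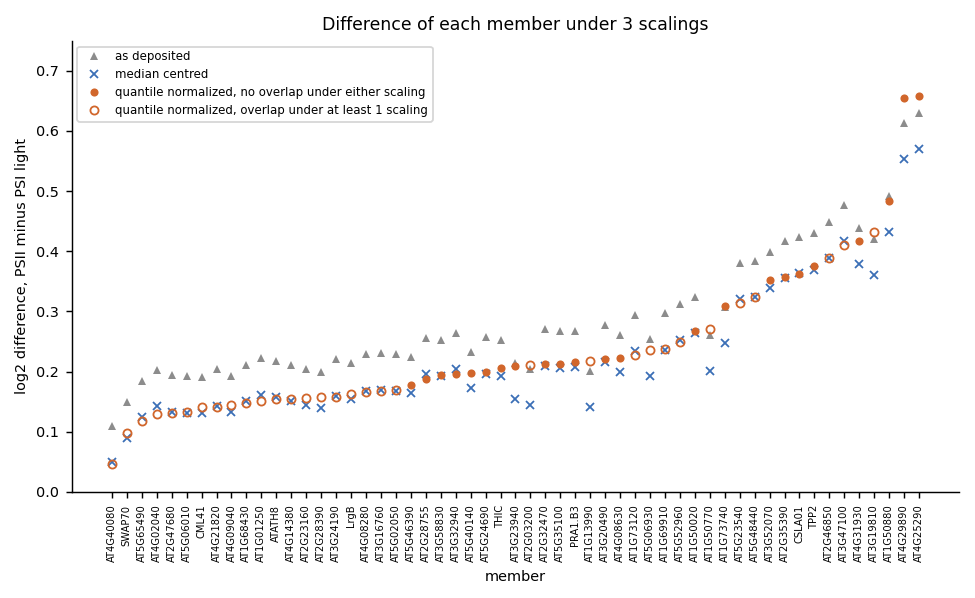
Log2 difference, PSII light minus PSI light, of each of the 55 genes as deposited (triangles), median centred (crosses) and quantile normalized (circles; filled where the groups stayed apart under both scalings). Filled circles are the 23 genes kept by both scalings. Triangles lie above the crosses for every gene, since centring lowers each gene by the same amount.

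In limma over all 3439 probes, with Benjamini-Hochberg adjustment, 1 of the 55 genes, AT4G31930, passed an adjusted p under 0.05, and 0.756% of all probes were called higher in PSII light. With the replicate number as a block 3 of the 55 passed, AT4G31930, AT2G46850 and AT1G50020, where 0.785% of all probes were called higher. The genes had been chosen on the same contrast, so nothing is read from these counts. Roles below are background knowledge of the Arabidopsis genome and were not part of the deposited data.

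The group with plastid roles held 11 genes, with log2 differences from 0.14 to 0.66 and a median of 0.19. AT4G29890, a choline monooxygenase-like protein, had intensities with a lowest of 1.24, a median of 1.60 and a highest of 2.36 in PSI light, and of 2.40, 2.65 and 2.82 in PSII light. Its PSI-light replicates were unequal, with means of 1.60, 2.26 and 1.25, so that replicate 2 nearly reached the PSII-light level while replicates 1 and 3 lay well below it. The log2 difference was 0.66 ± 0.18 (SE, n = 3), and within replicate numbers 1, 2 and 3 it was 0.87, 0.16 and 0.94.

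AT5G35100, a cyclophilin-type peptidyl-prolyl isomerase, ran from 0.584 through a median of 0.711 to 0.717 in PSI light and from 0.778 through 0.835 to 1.03 in PSII light. The PSI-light samples of replicate 3 were the low ones and the PSII-light samples of replicate 3 the high ones, giving a log2 difference of 0.21 ± 0.08 (SE, n = 3). AT3G23940, the dihydroxyacid dehydratase of branched-chain amino acid synthesis, had a lowest, median and highest intensity of 1.08, 1.20 and 1.24 in PSI light and 1.30, 1.38 and 1.47 in PSII light. Its groups were tight and close, with a log2 difference of 0.21 ± 0.07 (SE, n = 3).

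The other plastid genes differed by less. THIC, which makes the pyrimidine part of thiamin, had a log2 difference of 0.21 ± 0.06 (SE, n = 3). Its mean intensity was 0.776 ± 0.0618 (SD, n = 3) under PSI light and 0.960 ± 0.0386 (SD, n = 3) under PSII light. AT5G24690, a RETICULATA-related protein, differed by 0.20, AT3G58830, a phosphatidylglycerophosphate phosphatase of plastid lipid synthesis, by 0.19, and AT5G46390, a relative of the C-terminal peptidase that processes the D1 protein of photosystem II, by 0.18. AT4G29890, AT5G35100, AT3G23940 and these 4 genes did not overlap under either scaling.

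LrgB, the plastid transporter that carries glycolate and glycerate in photorespiration, had a log2 difference of 0.16 ± 0.08 (SE, n = 3). Its difference was 0.34 in number 1, 0.17 in number 2 and -0.02 in number 3 after quantile normalization, so its groups no longer kept apart. AT3G24190 (0.16) and ATATH8 (0.15), both of the ABC1-like kinase family, also overlapped after both scalings. AT4G09040 (0.14), an RNA-binding protein with RRM domains, overlapped after median centring only. In all, 7 of the 11 plastid genes were kept by both scalings.

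Protein turnover was represented by 5 genes, with a median log2 difference of 0.21 on the quantile-normalized scale. TPP2, tripeptidyl peptidase II, a large cytosolic peptidase that trims peptides released by the proteasome, had a lowest, median and highest intensity of 0.222, 0.257 and 0.293 in PSI light and 0.329, 0.454 and 0.472 in PSII light. In PSII light its replicate 1, at 0.331, lay below replicates 2 and 3, at 0.465 and 0.459, and nearer to the PSI-light values. The log2 difference of TPP2 was 0.38 ± 0.10 (SE, n = 3). It is understated by the pseudocount of 0.193, which is of the order of this dim probe.

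AT5G23540, the deubiquitinating subunit in the lid of the proteasome, ran from 0.306 through 0.371 to 0.483 in PSI light and from 0.499 through 0.534 to 0.625 in PSII light. Both regimes were highest in replicate 2, and the log2 difference was 0.31 ± 0.12 (SE, n = 3). Its groups overlapped after both scalings. AT2G03200, an aspartyl protease family protein, had a lowest, median and highest of 1.11, 1.24 and 1.35 in PSI light and 1.37, 1.45 and 1.52 in PSII light, a log2 difference of 0.21 ± 0.06 (SE, n = 3). It was 0.14 on median-centred values, where the groups overlapped. The U-box protein AT5G40140 (0.20) was kept by both scalings, as TPP2 was, and the F-box protein AT2G23160 (0.16) by neither.

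The 6 other enzymes had the highest median log2 difference of the groups with more than 2 genes, 0.34. AT4G25290 belongs to the DNA photolyase family, whose members use light to repair DNA. It was the brightest of the 55 genes and had the largest log2 difference with this pseudocount. By the ratio of means the dimmer TPP2 stood above it, 1.62 against 1.60. The intensity of AT4G25290 had a lowest of 1.24, a median of 1.66 and a highest of 2.09 in PSI light. In PSII light these were 2.30, 2.42 and 3.30. PSII-light replicate 1, with a mean of 3.30, stood above replicates 2 and 3, both at 2.37, and PSI-light replicate 2, at 2.08, above replicates 1 and 3, at 1.66 and 1.28. The log2 difference was 0.66 ± 0.20 (SE, n = 3), made of 1.05, 0.21 and 0.72 within numbers 1, 2 and 3.

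CSLA01, a cellulose synthase-like enzyme of mannan synthesis, had a lowest, median and highest of 0.229, 0.289 and 0.396 in PSI light and 0.452, 0.466 and 0.507 in PSII light. AT2G35390, a phosphoribosyl pyrophosphate synthase that supplies nucleotide synthesis, had 0.249, 0.319 and 0.427 in PSI light and 0.461, 0.482 and 0.518 in PSII light. Both genes varied several times more in PSI light than in PSII light, with SDs of 0.0712 against 0.00802 for CSLA01 and 0.0678 against 0.00985 for AT2G35390 (n = 3). Their log2 differences were each 0.36, with SEs of 0.09 and 0.08.

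AT1G73740, a glycosyltransferase family protein, differed by 0.31 ± 0.07 on the log2 scale (SE, n = 3), and like AT4G25290, CSLA01 and AT2G35390 it was kept by both scalings. AT5G48440, an FAD-dependent oxidoreductase family protein (0.32), and AT4G08280, of the thioredoxin superfamily (0.17), overlapped after both scalings.

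Signalling, transcription and vesicle traffic formed a group of 10 genes with the smallest median log2 difference, 0.15. The kinase family gene AT2G46850 had a lowest, median and highest intensity of 0.561, 0.638 and 0.843 in PSI light and 0.893, 0.956 and 1.14 in PSII light. Replicate 2 was the high one in both regimes, and the log2 difference was nearly the same within numbers 1, 2 and 3, at 0.37, 0.38 and 0.41. AT1G69910, a receptor-like kinase family gene, ran from 0.637 through 0.656 to 0.725 in PSI light and from 0.763 through 0.894 to 0.922 in PSII light. Its low PSII-light samples were those of replicate 3, and its log2 difference was 0.24 ± 0.08 (SE, n = 3).

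PRA1.B3, a prenylated RAB acceptor of the endomembrane system, had a lowest, median and highest of 0.239, 0.266 and 0.311 in PSI light and 0.341, 0.364 and 0.388 in PSII light. The log2 difference was 0.22 ± 0.05 (SE, n = 3), and PRA1.B3 was the 1 gene of this group kept by both scalings. AT2G28390, which encodes MON1, a protein of late endosome traffic long used as a reference gene for its even expression, had a log2 difference of 0.16 ± 0.07 (SE, n = 3) and the thinnest margin of the 55.

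AT1G01250, an AP2/ERF transcription factor, differed by 0.15, and AT4G21820, a calmodulin-binding protein with IQ motifs, by 0.14. CML41, a calmodulin-like protein, also differed by 0.14, and AT2G47680, a zinc finger helicase family protein, by 0.13. SWAP70, a guanine nucleotide exchange factor of small GTPases, differed by 0.10 and AT4G40080, an ENTH/ANTH domain protein of vesicle coats, by 0.05. These 6 genes overlapped after both scalings, as AT1G69910 did. AT2G46850 and AT2G28390 overlapped after quantile normalization and not after median centring.

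The mitochondrial glycoprotein family, proteins of the mitochondrial matrix, was represented by 2 genes. AT4G31930 had a lowest, median and highest of 0.854, 0.979 and 1.13 in PSI light and 1.27, 1.41 and 1.48 in PSII light, a log2 difference of 0.42 ± 0.07 (SE, n = 3), with similar values of 0.34, 0.44 and 0.47 in numbers 1, 2 and 3. AT5G02050 had 0.574, 0.619 and 0.694 in PSI light and 0.730, 0.775 and 0.791 in PSII light, a log2 difference of 0.17 ± 0.06 (SE, n = 3). The first was kept by both scalings and the second by neither. The probes numbered directly before and after that of AT4G31930 had log2 differences of 0.50 and 0.49 and mean intensities of 5.16 and 1.71, against its own 1.19. Their part in its value was not tested.

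No role is given here for 21 genes. The largest log2 difference among them was that of AT1G50880, whose lowest, median and highest intensities were 0.809, 0.915 and 1.18 in PSI light and 1.32, 1.41 and 1.48 in PSII light, a difference of 0.48 ± 0.10 (SE, n = 3). AT3G19810 had 1.02, 1.29 and 1.61 in PSI light and 1.69, 1.78 and 1.92 in PSII light, a difference of 0.43 ± 0.12 (SE, n = 3). In both genes the PSII-light replicates lay close together while PSI-light replicate 2 stood above replicates 1 and 3. AT3G47100 showed the opposite spread, with 0.469, 0.538 and 0.640 in PSI light and 0.671, 0.904 and 0.973 in PSII light, where replicate 3 was the low one, and a difference of 0.41 ± 0.13 (SE, n = 3).

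Among the brighter of these genes, AT1G13990 had a lowest, median and highest of 1.77, 1.90 and 1.94 in PSI light and 2.01, 2.18 and 2.48 in PSII light, a log2 difference of 0.22 ± 0.06 (SE, n = 3). AT1G50770 had 1.18, 1.25 and 1.34 in PSI light and 1.35, 1.51 and 1.76 in PSII light, a log2 difference of 0.27 ± 0.07 (SE, n = 3). For both the PSI-light samples were tight and the PSII-light samples spread upward. Their differences were 0.14 and 0.20 on median-centred values, where the groups overlapped.

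The remaining 16 genes without a role had log2 differences between 0.12 and 0.35. AT3G52070, AT1G50020, AT4G08630, AT3G20490, AT2G32470, AT3G32940 and AT2G28755 were kept by both scalings, as AT1G50880 was. AT5G06930 was kept by quantile normalization alone, as AT3G19810, AT1G13990 and AT1G50770 were. AT5G52960, AT1G73120, AT3G16760, AT4G14380, AT1G68430, AT5G06010, AT4G02040 and AT5G65490 overlapped after both scalings, as AT3G47100 did.

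Within each of the 3 replicate numbers, the rule itself makes all 55 genes higher in PSII light on deposited values. The counts within numbers are therefore a description and show no separate agreement between replicates. After quantile normalization, 53 of the 55 genes were higher in PSII light within number 1, 55 within number 2 and 53 within number 3, with median log2 differences of 0.22, 0.20 and 0.22. The medians over all probes were 0.01, 0.02 and 0. On deposited values the medians of the 55 were 0.27, 0.20 and 0.32, and those of all probes 0.06, 0.01 and 0.08. The range of the 55 genes was also narrowest within number 2, from 0.02 to 0.48, against -0.03 to 1.05 in number 1 and -0.04 to 0.94 in number 3.

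**Figure D4:**
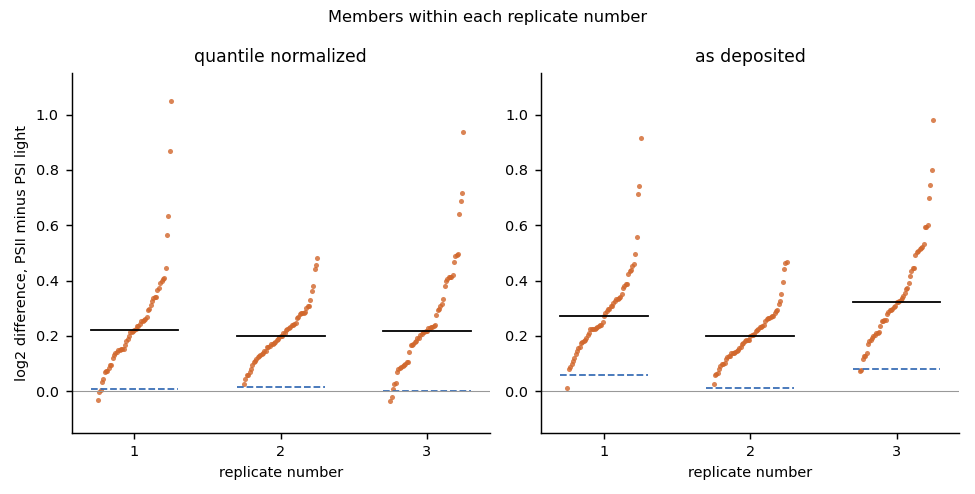
Log2 difference, PSII light minus PSI light, of the 55 genes within replicate numbers 1, 2 and 3, quantile normalized (left) and as deposited (right). Points are genes in rising order, solid lines their medians and dashed lines the medians over all probes; the dashed lines lie above 0 in numbers 1 and 3 on deposited values.

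On deposited values, the arrays of replicate 2 most often set the boundary between the regimes. The highest PSI-light sample belonged to replicate 2 for 32 of the 55 genes, and the lowest PSII-light sample to replicate 2 for 26. Among all 569 probes of 1 gene these shares were 45.5% and 44.1%, against 58.2% and 47.3% for the 55 genes. Quantile normalization changed this on the PSII-light side. PSI-light replicate 2 was still highest for 28 of the 55 genes, 50.9%, against 41.3% of the 569. PSII-light replicate 2 was lowest for 12, 21.8%, against 33.2%. PSII-light replicate 1 was lowest for 23, 41.8%, against 28.8%, and replicate 3 for 20, 36.4%, against 38.0%. PSI-light replicate 3 held the highest deposited PSI-light value for 5 genes, 9.09%, against 18.6% of the 569. With quantile normalization it was highest for 15 genes, 27.3%, against 33.2%. After quantile normalization the SD between replicates was larger in PSI light for 29 of the 55 genes, 52.7%, against 50.1% of all 569. Repeat measurements of the 55 genes had a median absolute gap of 0.05 on the log2 scale of deposited values. The SD between replicates, on quantile-normalized means of repeats, had a median of 0.08 in PSI light and 0.07 in PSII light. The gap and the SD are unlike measures and cannot be compared directly.

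Same-numbered replicates of the 2 regimes deviated together over all probes, with correlations of 0.323, 0.366 and 0.360 for numbers 1, 2 and 3. Over the 55 genes, whose points share the same arrays, the correlations were 0.01, 0.05 and 0.19.

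Several of the genes lay near one another in the numbering of the probes. Of the 55, 23 had another of the 55 among the 10 probes nearest in number. The share for other probes of 1 gene is not given here, so nothing is read from that count. Probes 2385 to 2429 held 7 of the 55 (THIC, AT2G35390, AT4G31930, AT5G06010, AT3G23940, AT1G73120 and AT3G20490) among 39 probes. In that stretch 33 of the 39 had a log2 difference above 0, where 57.0% of all probes had one. The other 32 probes of that stretch had a median log2 difference of 0.15. Probes 3381 to 3409 held 5 (AT3G58830, AT3G32940, AT2G32470, AT5G48440 and AT5G24690) among 23, and the other 18 probes had a median of 0.08. Stretches with 3 of the 55 genes each, no more than 25 numbers apart, went both ways. The other probes had a median of 0.08 around AT3G19810, AT5G46390 and AT1G01250, and 1 other probe read 0.15 among AT5G65490, AT1G73740 and AT5G23540. Around AT1G50880, LrgB and AT5G40140 the other probes had a median of -0.03, around AT3G47100, AT1G68430 and AT1G69910 one of -0.01, and around AT5G52960, AT3G16760 and PRA1.B3 one of 0.00762.

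Taking all 423 probes within 5 places of one of the 55 genes, 69.3% had a log2 difference above 0 and their median was 0.05. The 2961 probes farther away had 54.5% above 0 and a median of 0.00474. A running median over 41 consecutive probe numbers reached 0.15 at AT5G06010 and was -0.09 at AT3G52070. Of the 55 genes, 54 lay above this running median. They were chosen on the light difference, so that count follows largely from the choice and nothing is read from it. With the running median subtracted, 16 of the 55 genes still did not overlap: AT4G29890, AT5G35100, AT5G40140, AT4G25290, CSLA01, AT1G73740, AT1G69910, PRA1.B3, AT1G50880, AT3G19810, AT3G47100, AT3G52070, AT1G50020, AT3G20490, AT1G13990 and AT2G28755. Under this correction 4.39% of the 569 probes of 1 gene did not overlap in the direction of PSII light and 5.45% in the other. The median log2 difference of the 55 became 0.15. The part of neighbouring spots in the values was not tested.

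**Figure D5:**
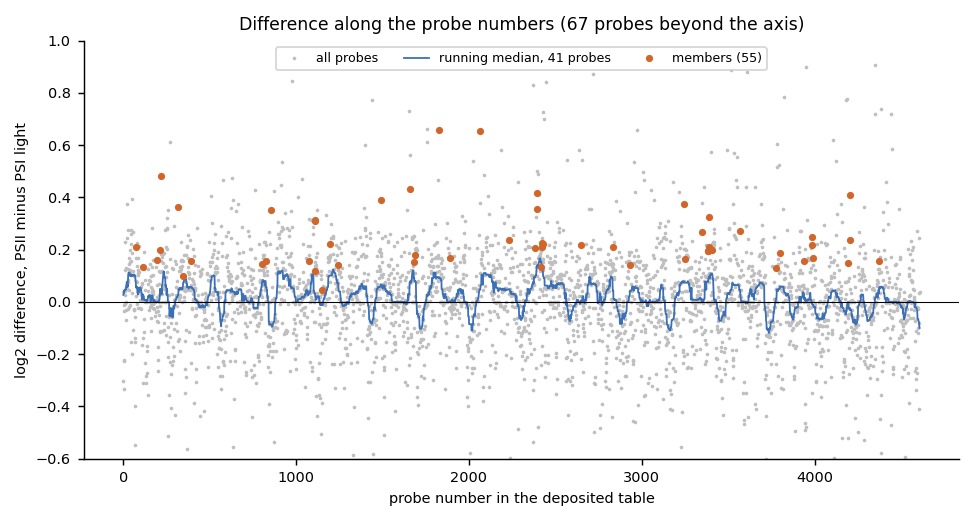
Log2 difference, PSII light minus PSI light (quantile normalized), against probe number for all probes (small points), the running median over 41 probes (line) and the 55 genes (large points); 67 probes lie beyond the axis. The line swings above and below 0 along the numbering; it is high at AT5G06010 (0.15) and near 0 at PRA1.B3 (0.000363), each in a stretch with several of the 55 genes.

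A second reading of the same gene was available for 3 of the 55, at probes annotated to 3 genes each. The probe shared by PRA1.B3 had a log2 difference of 0.19 ± 0.07 (SE, n = 3), with PSI-light values from 0.362 to 0.446 and PSII-light values from 0.503 to 0.586, which did not overlap. The probe shared by AT5G46390 had a log2 difference of -0.18 ± 0.07 (SE, n = 3). Its PSI-light values, 0.786 to 0.884, overlapped its PSII-light values, 0.619 to 0.861. The probe shared by AT1G68430 had one of -0.28 ± 0.05 (SE, n = 3). It did not overlap in the opposite direction, with PSI-light values from 0.233 to 0.308 and PSII-light values from 0.173 to 0.225. Which of its genes such a probe read is not known. None of the 55 loci had another probe of its own. On the chromosomes no 2 of the 55 were adjacent in the gene table, and the nearest pair, AT1G50770 and AT1G50880, had 9 genes between them.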

How the data were processed

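The authors deposited 1 table of linear intensity values, with a column for each sample. Their background correction, normalization and kind of array are not given in the sources used here. The 55 genes were found on these deposited values. Intensities were moved to the log2 scale with a pseudocount of 0.193 (percentile 5 of all values above 0), then quantile normalized. Repeat measurements were averaged, and differences were taken with lmFit and eBayes (trend) of limma 3.58.1 in R 4.3.3 over all 3439 probes, unfiltered, with Benjamini-Hochberg adjustment (two-sided, threshold 0.05). The same fit was tested on simulated data. Same-numbered replicates deviated together, so the replicate block is an alternative; this pairing comes from the labels' numbers and the values. Other alternatives were scalings, pseudocount, dim probes, repeats, variance models and left-out replicates.

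Genes were named through GEO's annotation of the array, dated 2016 and possibly out of date. Of 692 probes of 1 gene, 690 matched the TAIR10.1 gene table, whose coordinates served to order the genes along the chromosomes. That table holds no descriptions, so pentatricopeptide genes and roles were assigned by hand, the keyword classes planned for all genes were not used, and promoter motifs were not analysed here. The genes and lists were chosen with earlier results of these data known. Every one of the 55 is named; values by sample are given for the 3 largest differences of each role group and the 5 brightest, and others singled out were chosen after their values were seen.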

Additional observations from a re-analysis of the deposited data

Results flagged for a closer look

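Each of the 110 sets of 6 samples (55 genes in 2 regimes) was checked for a single sample far from the rest, and 3 sets held one. Among sets of 6 independent values about 1 in 20 would by chance. These samples came in pairs of repeat measurements and the genes were chosen on their values, so that rate need not hold here. AT5G06930 read 1.58 in PSII-light sample 4, where the next highest of the 6 samples was 1.34. AT1G69910 read 0.725 in PSI-light sample 3, next to 0.663. AT4G08630 read 0.959 in PSI-light sample 2, next to 0.907.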

How the results depend on the processing

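The number of genes meeting the rule was 55; the counts below could not leave out pentatricopeptide genes among added probes. It was 26 with median centring, 13 with a minimum mean of 1, and 128 on means of repeat measurements. Settings chosen after seeing the data gave 24 where both scalings had to hold and 19 with the running median removed. Quantile normalization (38) and no minimum (58) kept it within 1.5 times. Leaving out 1 replicate, which loosens the rule, gave 58 to 132, with 132 without PSI-light replicate 2, 95 without PSII-light replicate 2 and 88 without PSII-light replicate 3. The median log2 difference of 0.21 became 0.0684 with a pseudocount of 1.93, which shrinks dim probes by construction, and lay between 0.18 and 0.21 without 1 replicate. It was 0.21 with the replicate block too, since the pairing leaves means unchanged. In limma with Benjamini-Hochberg adjustment, 1 gene passed, where 0.756% of all probes were called higher. The count with the share of all probes in brackets was 3 (0.785%) with the replicate block, 3 (1.45%) with robust eBayes, 7 (1.57%) with median centring and 8 (2.95%) when the dimmest 25% of probes were dropped. It was 22 (4.59%) with repeats as a random block, 45 (13.9%) with all 6 as separate samples, 2 (1.34%) with the running median removed and 0 (0.756%) on deposited values, where 52 had an unadjusted p under 0.05. Without 1 replicate 0 to 6 passed. It was 6 (1.51%) without PSI-light replicate 2 and 1 (0.233%) without PSII-light replicate 1. It was 0 (0.0291% to 0.204%) without PSI-light replicates 1 or 3 or PSII-light replicates 2 or 3. There, 21 to 28 had an unadjusted p under 0.05. The genes were chosen on this contrast, so low unadjusted p values follow from the choice. The share of all probes with such a p is not given here, and nothing is read from these counts. For the 19 genes with values by sample, 190 log2 differences were compared. They covered deposited values, median centring, the larger pseudocount, the replicate block and left-out replicates. Of these, 0 changed sign and 20 moved by more than the SD between replicates, with the larger pseudocount or median centring. The sign as deposited and after median centring was fixed by the rule, and the replicate block leaves every difference unchanged. Leaving out 1 replicate keeps the rule's order among the remaining deposited values, so a change of sign was unlikely there too. The 0 changes of sign therefore say little about stability. Removal of the running median was not among these settings, and under it the difference of AT5G06010 was -0.02. The cause of these changes was not tested.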

Other observations

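The 14 genes with a log2 difference of at least 0.3 tended to share an order among the PSI-light replicates, an observation made after their values were seen. In 10 of them, AT1G50880, CSLA01, AT3G52070, AT2G46850, AT3G19810, AT4G25290, AT4G29890, AT2G35390, TPP2 and AT5G48440, PSI-light replicate 2 was highest and replicate 3 lowest after quantile normalization. This order was found in 17 of all 55 genes and in 22.5% of the 569 probes of 1 gene with a mean of at least 0.3. The order concerns replicates of 1 regime and was not tested.

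The log2 difference varied along the probe numbers with a repeat of about 287 numbers, the length from 40 to 600 with the widest spread of bin medians, chosen after seeing the values. Folded at 287 numbers into 12 bins, the median log2 difference over probes outside the 55 genes ran from -0.09 to 0.10. The 4 highest bins held 29 of the 55 genes among 192 probes of 1 gene with a mean of at least 0.3, or 15.1%. The 2 bins with a median below 0 held 2 among 85, or 2.35%. Over all bins the share was 9.67%. The bins were ranked by the light difference, on which the genes had also been chosen. What the numbering stands for on the array is unknown here, and its part in the choice of genes was not tested.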
